A study of Mus musculus with 12 samples.

Results

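Prom1, Clu, Ly6a, Psca, Cd24a and Cd44, 6 genes used as markers of luminal progenitor cells of the prostate, were followed across 4 treatments of mouse prostate organoids. They were taken by gene name from a table of 24674 genes, and each name matched 1 row. Organoids are small epithelial cultures grown in a gel. These were started from basal cells of wild-type C57BL/6 prostate and were given vehicle, UK5099 alone, butyrate alone, or UK5099 and butyrate together (the combination), with 3 cultures in each group and 12 in all. UK5099 is an inhibitor of the mitochondrial pyruvate carrier, the entry route of pyruvate for oxidation, and butyrate is a short-chain fatty acid that blocks histone deacetylases. The labels give no dose, time or animal age for these cultures and do not say whether replicates came from separate mice, so the p-values below measure only the spread between these samples. Values are TPM, a length-scaled transcript abundance that totals 1000000 in each sample, where the length used for a gene was its full span with introns.

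The prostate epithelium has basal cells, which carry keratins such as KRT5 and the factor p63, and luminal cells, which carry KRT8 and KRT18. Luminal progenitors are luminal cells, most common near the urethra, that can regenerate glands and form organoids. They are recognised by surface proteins rather than by a single defining gene. PROM1 (prominin-1, CD133) is a cholesterol-binding protein of membrane protrusions. LY6A (Sca-1), PSCA and CD24 are held to the cell surface by a GPI lipid anchor, and LY6A and PSCA share the Ly6 fold. CD44 is the main receptor for hyaluronan and is also strong in basal cells. Clusterin, the product of Clu, is a secreted chaperone. In bulk RNA, fewer cells of a type and less RNA per cell cannot be told apart, so each value below is a level in the whole culture.

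The 6 genes did not move as a block. Clu and Prom1 fell with each drug and fell furthest with the combination, Psca rose with every treatment, and Ly6a, Cd24a and Cd44 changed by smaller amounts. A change was called where the coefficient of log2(TPM + 1) in limma was past 1 in either direction with an adjusted p under 0.01. UK5099 called 1 of the 6 higher, where 0.928% of all genes were called higher, and 2 lower, where 0.912% were. Butyrate called 1 higher and 3 lower, against 1.13% and 2.42% of all genes. The combination called 1 higher and 2 lower, against 1.79% and 4.63% of all genes. Without the limit on size, all 6 passed the adjusted p-value in each of these comparisons, where 33.0% (UK5099), 45.6% (butyrate) and 51.0% (combination) of all genes passed. The values of all 6 genes were separate from vehicle in every treated group, as was so for 49.2% (UK5099), 60.1% (butyrate) and 64.7% (combination) of all genes. These 3 comparisons share the vehicle cultures. Leaving out any 1 of the 12 cultures did not change these counts of calls.

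**Figure D1:**
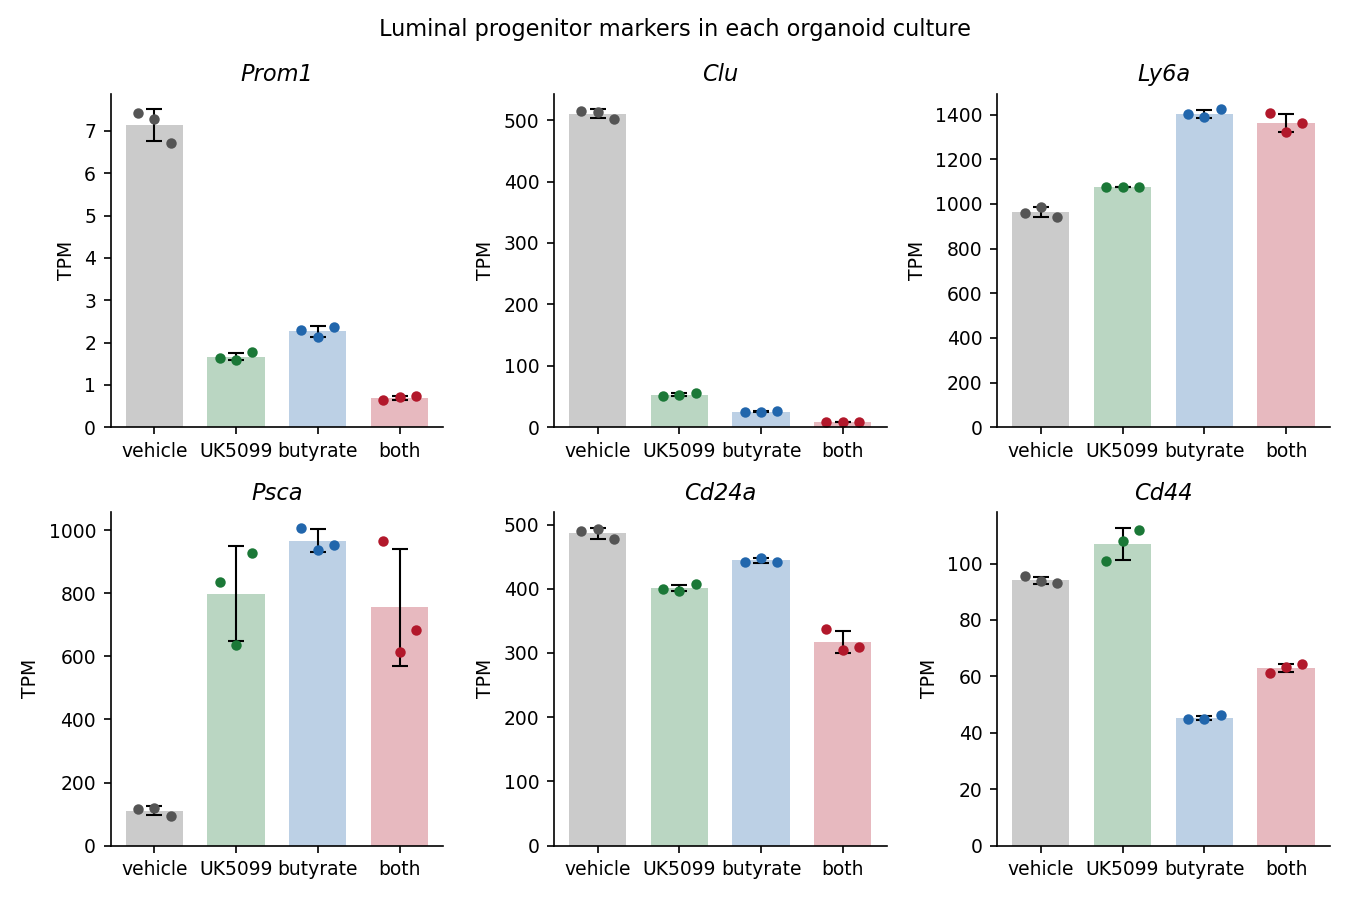
TPM of each marker (y axis, from 0) in vehicle, UK5099, butyrate and combination (both) cultures. Points are single cultures, bars are means and error bars are SD (n = 3). Clu falls from a mean of 510 in vehicle to 8.52 with both drugs, while Psca rises from 111 to 755 and has the widest spread among treated cultures.

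The start regions of Prom1 and Cd44 are shown because they are the 2 of the 6 genes that the RefSeq promoter table (GRCm38.p6) matched. Each runs from 250 bases before to 50 after an annotated start. For Prom1 the window is chr5:44101687-44101986 on the minus strand, the more upstream of its listed starts, and for Cd44 it is chr2:102901616-102901915 on the minus strand. Capitals mark matches on either strand to the TATA box (TATAAA), the CCAAT box (spelled as named), the GC box (GGGCGG), the AP-1 motif (TGANTCA) or the E-box (CACGTG).
Prom1: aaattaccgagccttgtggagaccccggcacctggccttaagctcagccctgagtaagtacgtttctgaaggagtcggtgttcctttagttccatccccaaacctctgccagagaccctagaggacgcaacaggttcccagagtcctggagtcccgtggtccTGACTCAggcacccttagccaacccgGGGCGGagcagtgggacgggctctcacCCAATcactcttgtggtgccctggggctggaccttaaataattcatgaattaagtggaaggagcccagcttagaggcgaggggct
Cd44: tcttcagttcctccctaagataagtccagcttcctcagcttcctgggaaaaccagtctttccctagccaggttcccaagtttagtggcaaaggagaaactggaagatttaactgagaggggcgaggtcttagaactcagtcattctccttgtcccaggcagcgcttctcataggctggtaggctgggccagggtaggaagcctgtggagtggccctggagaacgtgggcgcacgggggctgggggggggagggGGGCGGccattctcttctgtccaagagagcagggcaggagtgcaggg
The Prom1 window held the AP-1 motif at positions -88 to -82 from the start base, the GC box at -62 to -57 and the CCAAT box at -35 to -31, with no overlap among them. The Cd44 window held the GC box at 3 to 8. Across 32851 windows of this length, the AP-1 motif was found in 7.81%, the GC box in 35.7%, the CCAAT box in 37.4%, the TATA box in 13.6% and the E-box in 7.15%. A match describes letters in the window and was not tested as a binding site.

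Clu, on chromosome 14 from 66205932 to 66218996 on the plus strand (coordinates from the table, GRCm39 per the submitters' notes), had the largest changes among the 6. It stood at 515, 514 and 502 TPM in vehicle. With UK5099 it stood at 50.2, 52.7 and 55.6 TPM, and with butyrate at 25.0, 24.4 and 26.4 TPM. With the combination it stood at 8.48, 8.85 and 8.24 TPM. No values overlapped between any pair of groups, and the order was vehicle, UK5099, butyrate, combination. Against vehicle the mean of 510 ± 7.23 TPM (SD, n = 3) fell 9.66-fold under UK5099, 20.2-fold under butyrate and 59.9-fold under the combination. The coefficients were -3.25, -4.28 and -5.75, each with an SE of 0.04, and the adjusted p-values were 1.75e-10, 1.86e-11 and 1.97e-12. Under 6 scalings of the data the coefficients lay between -3.27 and -3.10, between -4.28 and -3.97, and between -5.75 and -5.30.

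The genes whose pattern lay nearest to that of Clu were found by the root mean square difference of log2(TPM + 1), set relative to vehicle, over the 12 samples. They were Rgs4 at 0.76, Fn1, which encodes fibronectin, at 0.78, and Spp1, which encodes the CD44 ligand osteopontin, at 0.91. These distances were under the 3.94 that Clu itself moved from vehicle on the same scale. They were larger than those of the nearest genes of the other markers, at most 0.51. The other markers moved less from vehicle, Psca by 2.52 and Prom1 by 1.54, so these distances do not show that Clu was followed less closely. Fn1 went from 70.2 TPM to 2.14, 0.938 and 0.252 TPM in UK5099, butyrate and combination cultures. Rgs4 went from 41.7 to 0.710, 1.42 and 0.151 TPM, with UK5099 below butyrate, the opposite of the order for Clu. Near or under 1 TPM the pseudocount of 1 shrinks a fall, so the distances understate how far these genes differ from Clu.

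Prom1, on chromosome 5 from 44150962 to 44259374 on the minus strand, stood at 7.42, 7.28 and 6.72 TPM in vehicle. It stood at 1.64, 1.59 and 1.77 TPM with UK5099, and at 2.29, 2.12 and 2.38 TPM with butyrate. In the combination cultures it stood at 0.639, 0.713 and 0.733 TPM. No values overlapped between groups, and here UK5099 alone lay below butyrate alone, the opposite of the order for Clu. The mean of 7.14 ± 0.370 TPM (SD, n = 3) fell 4.28-fold under UK5099, 3.15-fold under butyrate and 10.3-fold under the combination. The coefficients were -1.61, -1.32 and -2.26 (SE 0.04), with adjusted p-values of 7.54e-09, 7.48e-09 and 1.69e-10. At these levels the pseudocount of 1 shrinks a change, and with voom on recovered fragments the coefficients were -1.96, -1.34 and -2.89. Its low TPM comes with a span of 108413 bp around 7175 bp of exons, and between 764 and 6078 fragments per sample stood behind it.

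Prom2 encodes the other prominin, a related protein of membrane protrusions, and it went the other way. From a vehicle mean of 5.40 ± 0.349 TPM it rose to 13.7 ± 0.977 in UK5099 cultures and to 21.9 ± 0.349 in butyrate cultures (SD, n = 3). The combination mean was 21.9 ± 0.835 TPM. Its coefficients were 1.20, 1.84 and 1.84, and the adjusted p-values were 1.56e-07, 3.90e-09 and 1.88e-09. The direction of each prominin held under all 6 scalings. Prom2 was the only gene called among 6 partners of prominin, clusterin and CD24 that the table held, which also include the clusterin receptors Lrp8 and Vldlr. The genes nearest to Prom1 in pattern were Uba7, the activating enzyme for ISG15, at a distance of 0.13, Shisa2 at 0.16, and the long noncoding RNA AU022754 at 0.20.

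Psca, on chromosome 15 from 74586688 to 74588918 on the plus strand, was the marker that rose most. In vehicle it stood at 117, 121 and 94.1 TPM. It stood at 835, 635 and 928 TPM with UK5099, at 1007, 938 and 952 TPM with butyrate, and at 966, 615 and 684 TPM with the combination. Every treated culture lay above every vehicle culture, while the 3 treated groups overlapped, apart from UK5099 and butyrate. The mean of 111 ± 14.4 TPM rose 7.23-fold to 799 ± 150 with UK5099, 8.74-fold to 966 ± 36.4 with butyrate and 6.83-fold to 755 ± 186 with the combination (SD, n = 3). The coefficients were 2.83, 3.12 and 2.74 with an SE of 0.19, several times the SE of the other markers. The adjusted p-values were 2.00e-06, 3.75e-07 and 6.55e-07. The test did not separate the 3 treatments from each other. UK5099 added to butyrate gave -0.38 (adjusted p = 0.159), butyrate added to UK5099 gave -0.09 (adjusted p = 0.751), and butyrate against UK5099 gave 0.29 (adjusted p = 0.258).

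Psca therefore exchanged places with Clu inside each culture, a comparison that does not depend on how samples are scaled. With exonic lengths the ratio of Psca to Clu was 0.148 in vehicle cultures, 10.3 under UK5099, 26.1 under butyrate and 60.6 under the combination. The genes nearest to Psca in pattern were the aldehyde dehydrogenase Aldh3a1 at a distance of 0.44, the metallothionein Mt4 at 0.44 and Spink5, an inhibitor of epidermal proteases, at 0.51. Aldh3a1 stood at 6.80 TPM in vehicle and at 56.9, 50.4 and 84.3 TPM in the UK5099, butyrate and combination cultures.

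Ly6a lies on chromosome 15 from 74866726 to 74869880 on the minus strand. It was the highest of the 6 in every group, also per exonic length. In vehicle it stood at 960, 986 and 943 TPM, and with UK5099 at 1077, 1077 and 1075 TPM. It stood at 1402, 1388 and 1423 TPM with butyrate, and at 1406, 1324 and 1360 TPM with the combination. Butyrate and combination cultures overlapped, and both lay above the UK5099 cultures. The mean of 963 ± 21.7 TPM (SD, n = 3) rose 1.12-fold under UK5099, 1.46-fold under butyrate and 1.42-fold under the combination. The coefficients were 0.16, 0.54 and 0.50 (SE 0.02), with adjusted p-values of 0.000368, 4.14e-08 and 4.11e-08, and all were under the size limit. UK5099 added to butyrate left no difference past the test (-0.04, adjusted p = 0.201). Among all genes with at least 1 TPM the median coefficients were -0.12, -0.30 and -0.41 in these comparisons, so Ly6a stood higher against that median than against 0. With median of ratios scaling, its coefficients were 0.31, 0.86 and 0.97.

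The genes nearest to Ly6a in pattern were rows of ribosomal protein sequence, namely Rps18-ps5, Rps18 and Rps10-ps2, at distances between 0.0374 and 0.0445. Rows of this kind share reads with near-identical copies, so their own values are uncertain. Ly6a also has close relatives, and reads shared with Ly6c1 or Ly6c2 could not be assessed at its depth of over 10000 fragments. Ly6c1 rose from 41.1 to 77.8, 216 and 224 TPM with UK5099, butyrate and the combination, with coefficients of 0.90, 2.37 and 2.42. Ly6c2 had group means between 0.411 and 1.69 TPM.

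Cd24a, on chromosome 10 from 43454280 to 43460261 on the plus strand, changed by less than Clu, Prom1 or Psca in all 3 treatments. In vehicle it stood at 490, 492 and 477 TPM, and with UK5099 at 400, 397 and 407 TPM. It stood at 442, 448 and 442 TPM with butyrate, and at 337, 304 and 309 TPM with the combination. The groups did not overlap, and the combination was lowest, at 317 ± 17.6 TPM against 486 ± 8.42 TPM in vehicle (SD, n = 3). The coefficients were -0.28, -0.13 and -0.62 (SE 0.03), with adjusted p-values of 0.000120, 0.00836 and 1.24e-07, none of them past the size limit. The direction with butyrate depended on scaling: it was 0.18 with median of ratios scaling (adjusted p = 0.0018) and -0.13 with TPM as deposited. With UK5099 and with the combination it was below 0 under all 6 scalings, although with median of ratios scaling UK5099 gave -0.13 (adjusted p = 0.0198). The genes nearest in pattern were the kinase Stk39 at 0.03, the anchoring protein Akap13 at 0.04 and the histone demethylase Kdm3b at 0.05.

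Cd44, on chromosome 2 from 102641486 to 102732010 on the minus strand, was the marker on which the drugs went in opposite directions under all 6 scalings. Cd24a did so only under some of them. In vehicle it stood at 95.5, 93.9 and 93.1 TPM. It stood at 101, 108 and 112 TPM with UK5099, at 44.9, 45.1 and 46.1 TPM with butyrate, and at 61.4, 63.2 and 64.3 TPM with the combination. The 4 groups were separate, with UK5099 highest, then vehicle, the combination and butyrate. UK5099 raised it 1.14-fold (coefficient 0.18, SE 0.03, adjusted p = 0.00216) and butyrate lowered it 2.08-fold (-1.04, adjusted p = 9.09e-09). The direct difference, butyrate against UK5099, was -1.22 (adjusted p = 8.61e-09). The combination gave -0.57 (adjusted p = 2.70e-07). The call with butyrate rests on TPM as deposited, since under the 5 other scalings the coefficient was between -0.93 and -0.70 and under the size limit. With median of ratios scaling the combination gave -0.11 (adjusted p = 0.0101). The table holds 1 value per gene, so splice forms of CD44 were not separated. The genes nearest in pattern were the tubulin Tuba4a at 0.06, the amino acid transporter Slc7a8 at 0.08 and the receptor tyrosine kinase Axl at 0.09.

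**Figure D2:**
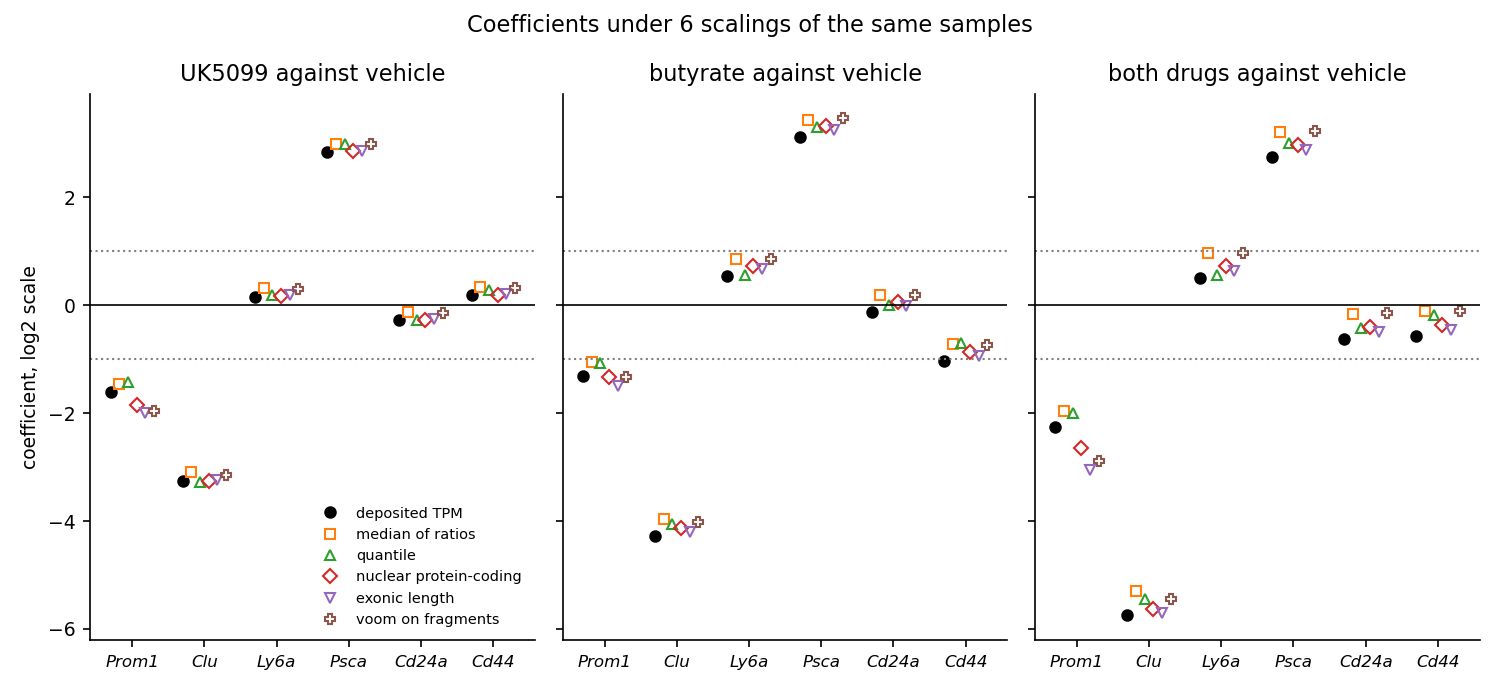
Coefficients on the log2 scale (y axis) of the 6 markers against vehicle under 6 scalings of the same 12 cultures, with the size limit of 1 as dotted lines. Prom1, Clu and Psca lie beyond the limit under every scaling in all 3 panels, Ly6a lies above 0, and Cd24a with butyrate lies on both sides of 0.

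The combination was next set against the sum of the single-drug coefficients, which the interaction term tests. It called 1 of the 6 above the sum, where 0.515% of all genes were called, and 1 below, where 0.499% were. Without the limit on size 5 of the 6 passed the adjusted p-value, as did 13.4% of all genes. For Clu the single coefficients summed to -7.53 and the combination gave -5.75, an interaction of 1.79 ± 0.06 (SE, adjusted p = 1.63e-07). For Psca they summed to 5.96 and the combination gave 2.74, an interaction of -3.21 ± 0.27 (SE, adjusted p = 3.44e-05). The combination was therefore 76.3% of the sum for Clu and 46.0% for Psca. For Prom1 the interaction was 0.66 (adjusted p = 6.25e-05), and the combination reached 77.3% of the sum. With voom it was 0.40 (adjusted p = 0.000116), and with a pseudocount of 0.01 it was 0.40 and missed the p-value limit (adjusted p = 0.0230). Ly6a reached 71.0%, with an interaction of -0.20 (adjusted p = 0.0020) that also missed the limit with that pseudocount (adjusted p = 0.0128). Cd44, whose single coefficients had opposite signs, had an interaction of 0.28 (adjusted p = 0.00302). For Cd24a the interaction of -0.21 missed the p-value limit (adjusted p = 0.0120). It passed with exonic length (adjusted p = 0.00821), nuclear genes rescaled (0.00328) and voom (0.000349), and without combination replicate 1 (0.000198).

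**Figure D3:**
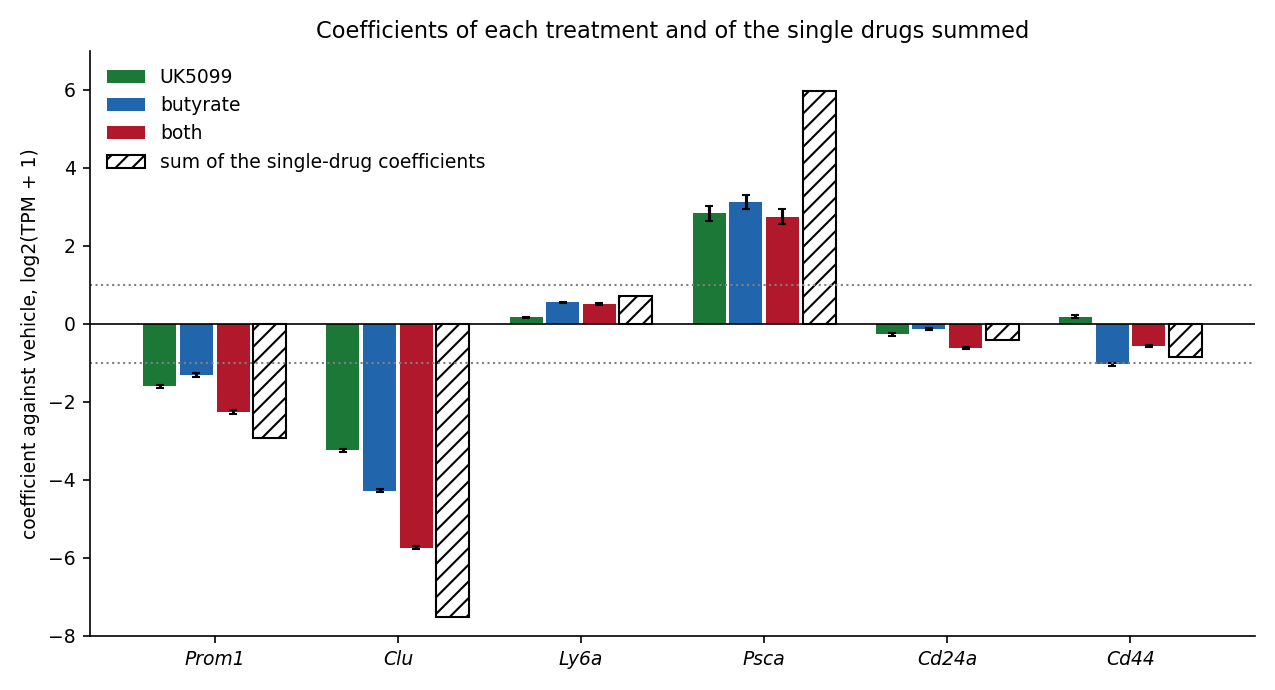
Coefficients of log2(TPM + 1) against vehicle (y axis) for UK5099, butyrate and both drugs, with SE as error bars, beside the sum of the single-drug coefficients (hatched). For Psca the bar of both drugs reaches 2.74 where the sum is 5.96, and for Cd24a it reaches -0.62 where the sum is -0.41.

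Each drug was also read on top of the other. UK5099 added to butyrate called 1 of the 6, Clu, which was lower by a coefficient of -1.46 (adjusted p = 2.18e-08), where 0.357% of all genes were called lower. Prom1 gave -0.95 (adjusted p = 4.34e-07), just under the size limit, and with voom it gave -1.56. Cd44 gave 0.46 (adjusted p = 8.75e-06), so UK5099 raised it in butyrate cultures too. Butyrate added to UK5099 again called Clu alone, 6.20-fold lower (adjusted p = 4.25e-10), where 1.15% of all genes were called lower. Cd44 gave -0.75 (adjusted p = 9.47e-08) and Prom1 gave -0.65 (adjusted p = 8.73e-07). Butyrate against UK5099 called Cd44 and also Clu, at -1.03 (adjusted p = 5.62e-08), where 1.18% were called lower. That call of Clu was lost under the 5 other scalings, at coefficients between -0.95 and -0.79, and without UK5099 replicate 3, at -0.998. That of Cd44 was lost with quantile normalisation, at -0.97.

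Levels of different genes were compared after dividing fragments by exonic length. In vehicle the order was Ly6a at 1420 TPM, Clu at 1093, Cd44 at 709, Cd24a at 636, Psca at 162 and Prom1 at 60.8. With UK5099 Psca stood next to Ly6a, at 1185 ± 219 against 1612 ± 19.4 TPM (SD, n = 3), and Clu dropped to the fifth place at 115. With butyrate Psca held the same place at 1533, and Cd24a at 630 stood above Cd44 at 371. With the combination Cd44 at 517 again stood above Cd24a at 452, and Clu at 19.9 stood above Prom1 at 6.46. No neighbours in these orders overlapped. The ratio of Cd44 to Ly6a on the same scale was 0.499 in vehicle and 0.507 with UK5099, and it was 0.165 with butyrate and 0.236 with the combination.

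**Figure D4:**
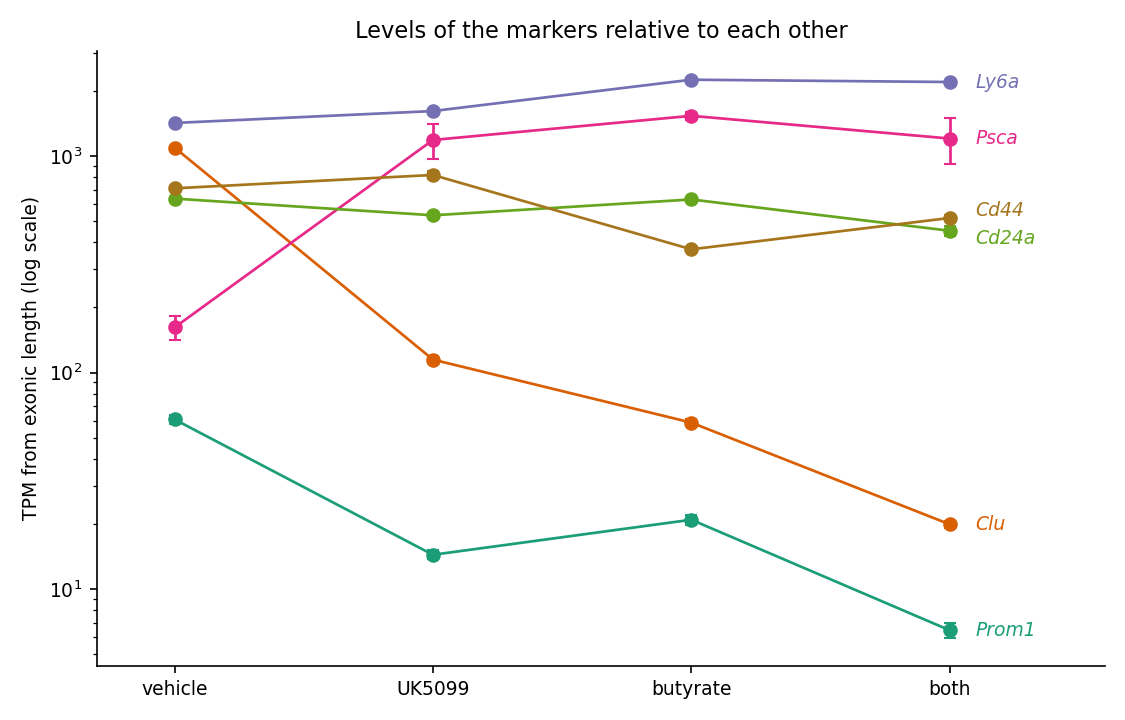
Mean TPM from exonic length (log y axis) of each marker in vehicle, UK5099, butyrate and combination (both) cultures, with SD as error bars (n = 3) and lines that only join the points of a gene. Psca crosses from the fifth place in vehicle to the place next to Ly6a in the treated groups, and Clu goes from 1093 to 19.9.

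Other genes used for luminal progenitors or stem-like cells were read from a list of 22, all in the table. UK5099 called 1 higher and 4 lower, butyrate 2 and 7, and the combination 1 and 11, and their median coefficients were -0.43, -0.46 and -0.95 where those of all genes were -0.03, -0.07 and -0.11 and those of genes averaging 1 TPM or more were -0.12, -0.30 and -0.41. With median of ratios scaling butyrate called 2 higher and 4 lower, and the combination 3 and 7. Ly6d, a Ly6 protein that marks castration-tolerant luminal progenitors, rose from 92.9 to 1206, 775 and 1098 TPM with UK5099, butyrate and the combination, with coefficients of 3.68, 3.05 and 3.55. The claudin Cldn3 fell from 661 to 192, 313 and 104 TPM, and its butyrate coefficient of -1.08 was -0.76 at the other end of the scalings. Lcn2, an iron-carrier binding protein, fell from 216 to 62.4, 70.3 and 14.4 TPM. Ppp1r1b fell from 24.1 to 5.09, 8.39 and 1.19 TPM. Ly6d and Psca thus rose with each drug while Lcn2, Ppp1r1b, Clu and Prom1 fell.

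In the Ly6 and uPAR family, to which LY6A and PSCA belong, 27 of 32 further members were in the table, and 13 reached 1 TPM in a group. UK5099 called 4, all higher, butyrate called 4 higher and 1 lower, and the combination called 5 and 1. Of all genes, 0.928%, 1.13% and 1.79% were called higher and 0.912%, 2.42% and 4.63% lower in these comparisons. With median of ratios scaling butyrate called 4, all higher. Ly6g6c stood at 1.91 TPM in vehicle and rose to 71.7 ± 14.7 in UK5099 cultures, 95.3 ± 3.28 in butyrate cultures and 162 ± 28.4 TPM where both were given (SD, n = 3). Lypd3 rose from 76.8 to 394, 208 and 474 TPM, and Ly6g6e from 5.71 to 18.5, 16.1 and 21.0 TPM. Plaur, the urokinase receptor, had coefficients of -0.30, -1.30 and -1.67. LY6A, PSCA and CD24 need a GPI anchor, and of 27 genes for its synthesis and transfer 0 were called in the limma fit of any treatment. The medians of these genes were -0.12, -0.20 and -0.37. Without the size limit 14, 18 and 20 of the 27 passed the adjusted p-value, where 33.0%, 45.6% and 51.0% of all genes passed. At an unadjusted p under 0.05 these were 16, 24 and 24, without a share of all genes to set them against. Voom with the size limit also called 0.

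Ligands, partners and splicing regulators of CD44 made a list of 18. UK5099 called 2 higher and 1 lower, butyrate called 7, all lower, and the combination called 2 higher and 5 lower. With median of ratios scaling butyrate called 1 higher and 5 lower, and the combination 2 and 3. Has3, a hyaluronan synthase, went from 5.12 to 20.5 TPM with UK5099 and 10.6 TPM with butyrate, with coefficients of 1.81 and 0.92, and the combination gave 1.78. Spp1 fell from 35.8 to 7.12 TPM with UK5099 and 0.440 TPM with butyrate. Its combination values were 0.290, 0.407 and 1.77 TPM, a mean of 0.823 ± 0.823 (SD, n = 3) that was 0.349 without combination replicate 3. Mmp9, a protease that docks on CD44, had coefficients of -0.49, -3.52 and -1.62, and Msn, which ties CD44 to actin, had -0.04, -1.64 and -1.02. The splicing regulator Esrp1 had -0.08, -0.36 and -0.51 and was not called.

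**Figure D5:**
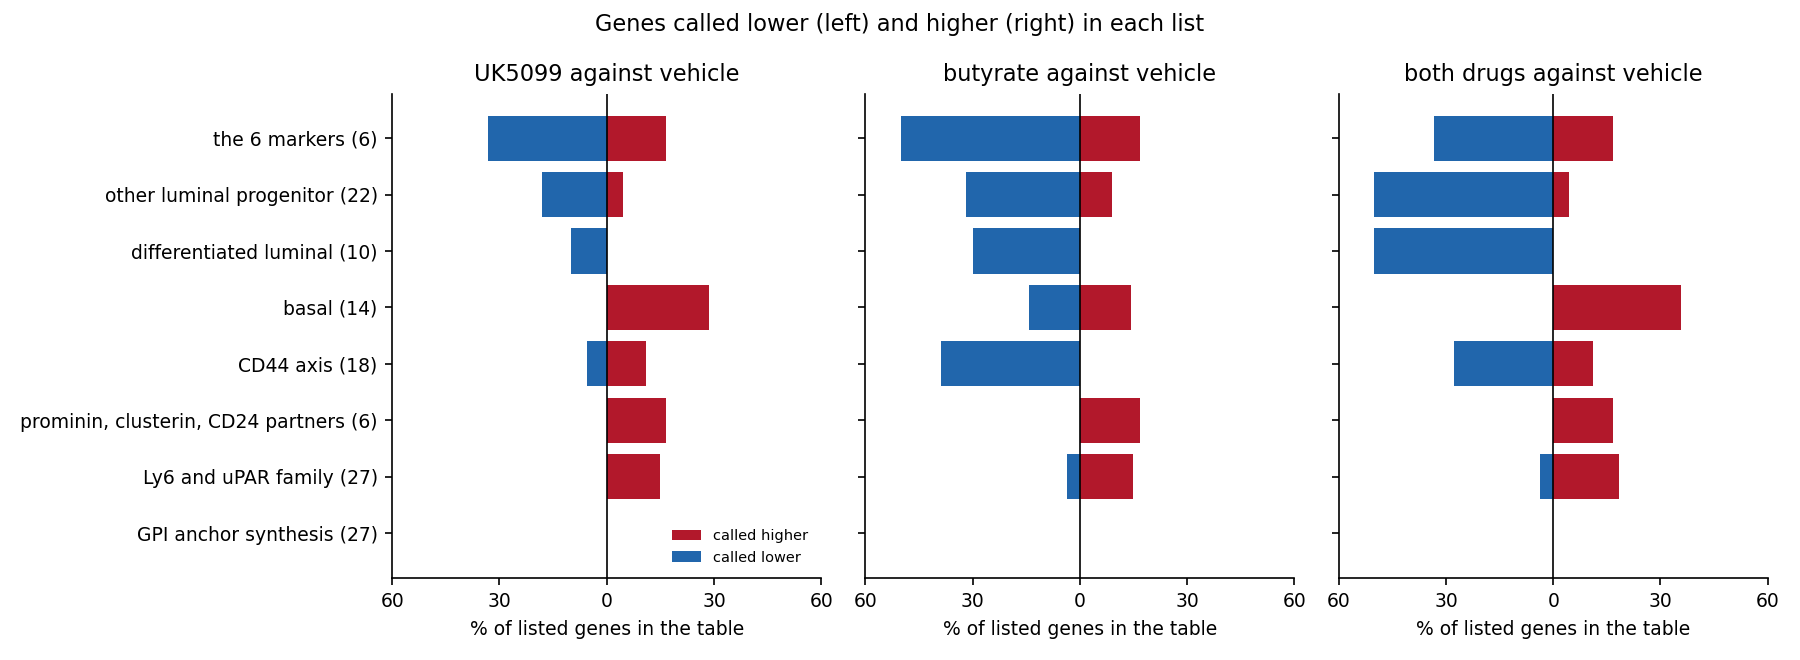
Share of the listed genes in the table (x axis, %) called higher (right) or lower (left) against vehicle, by list, with the number in the table in brackets. The other luminal progenitor markers were called mostly lower, at 11 of 22 with both drugs, while the GPI anchor genes had no calls.

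Basal and luminal markers moved as well, and their part in the values of the 6 genes was not tested. RNA of both kinds was present in every group. Of 15 differentiated luminal markers listed, 5 matched no row and were not analysed here, among them Pbsn and Msmb, which encode secretory products. Among 14 basal markers UK5099 called 4, all higher, butyrate called 2 higher and 2 lower, and the combination called 5, all higher. With butyrate the split depended on scaling: median of ratios scaling called 4, quantile normalisation 3, nuclear genes rescaled 3 and voom 5, all higher, and exonic length called 2 higher and 1 lower. In TPM as deposited, the summed level of the list was between 11154 and 11292 in vehicle and between 19958 and 20537 with UK5099. It was between 10235 and 10619 with butyrate and between 15185 and 15789 with the combination. The sums were not computed under other scalings, so the order of vehicle and butyrate may depend on scaling. Krt5 stood at 1848, 4930, 3152 and 4514 TPM in vehicle, UK5099, butyrate and combination cultures, and Krt14 stood at 1676, 5047, 1391 and 3641 TPM in the same order. Trp63, which encodes p63, had means of 5.23, 9.59, 8.46 and 8.76 TPM. Not all basal markers rose. With TPM as deposited the 2 called lower with butyrate were Krt17 (-1.03) and Bnc1 (-1.05). With the combination Krt15 had -0.65, Bnc1 -0.50 and Itgb4 -0.45. Ngfr had -0.54 with UK5099 but 1.46 with butyrate and 1.49 with the combination. Dlk2 was called higher with each treatment (1.31, 2.41 and 2.60), and Col17a1 with UK5099 (1.72) and the combination (1.60). Among 10 matched differentiated luminal markers, UK5099 called 1, butyrate 3 and the combination 5, all lower, and the summed level was between 3115 and 3220 TPM in vehicle, 1607 and 1625 with UK5099, 1233 and 1251 with butyrate, and 706 and 718 with the combination. Krt8 fell from 916 to 364, 275 and 119 TPM, and Krt18 stood at 1468, 748, 613 and 359 TPM. Epcam stood at 536 TPM in vehicle and at 303, 170 and 95.4 TPM in the treated groups. The study sorted both basal and luminal cells as EpCAM-positive, so Epcam does not separate the 2 kinds. Epcam was among the genes called with butyrate (-1.65) and with the combination (-2.48). Cdh1, whose absence the study used beside that of Epcam to define mesenchymal-like cells, was called with the combination (-1.01). These calls and the sum are therefore not purely luminal.

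Markers of other cell types were scarce, except for 2 leukocyte-list genes that epithelia can also express. Endothelial markers summed to at most 0.0426 TPM in any sample. The fibroblast list summed to between 2.31 and 2.96 TPM outside butyrate and to a mean of 10.8 TPM with butyrate alone, where Dcn stood at 9.51 TPM against 0.762 in vehicle. In the leukocyte list Cd14 fell from 215 to 57.6, 30.7 and 14.5 TPM and Cd68 stood at 24.2, 30.2, 67.4 and 91.7 TPM, while Ptprc, carried by all leukocytes, had group means of at most 0.00163 TPM. Neuroendocrine markers summed to between 0.756 and 2.42 TPM. Urothelial markers, of a neighbouring epithelium that also makes PSCA, summed to between 3.70 and 8.79 TPM, and Upk3a had coefficients of -1.62 under UK5099 (adjusted p = 6.62e-07), -0.95 under butyrate (adjusted p = 1.03e-05, under the size limit) and -1.57 under the combination (adjusted p = 1.77e-07). Depth was between 33251850 and 43499012 fragments per sample. UK5099 replicate 1 and combination replicate 1 differed most from the other replicates of their groups, and without both the counts of members called were the same in all 7 comparisons.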

How the data were processed

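RNA was sequenced from 12 cultures in 4 groups of 3, taken from the labels. The submitters' notes name STAR 2.7.9a, Partek and GRCm39, while the study's methods name STAR, RSEM and GRCm38. The authors deposited TPM per gene. The file header names no build. The listed length is stop minus start, and the printed end is stop minus 1. Its median is 11598 bp, against 3006 bp of exons in GENCODE (GRCm38), which covered 96.9% of genes and gave the exonic TPM. TPM steps gave whole fragments (tolerance 0.02) for 75.4% to 76.6% of coding values under 1000 fragments. Prom1 had fragments that were not whole in 7 of 12 samples, so some may be shared among genes. Those of Clu, Ly6a, Cd24a and Cd44 were also not whole in some or all samples, mostly at over 10000 fragments. At that depth 7.69% to 10.6% of coding values were whole, and sharing was not tested for these genes.

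Following the study's methods, limma 3.58.1 (R 4.3.3) was fitted to log2(TPM + 1), a pseudocount chosen here, with UK5099, butyrate and interaction terms, all 12 samples and Benjamini-Hochberg adjustment over 24674 genes. On simulated data 110 of 200 changed genes were recovered for UK5099 (82 of 82 at 4 TPM or more) and 100 of 200 for butyrate (66 of 68), with 1 false call each. The simulation used only large changes, the same small spread for every gene and no deviant replicate. It therefore does not describe recovery or false calls for genes with a wide spread, such as Psca. The members and lists were chosen with earlier results of these data known. Named genes were the 6 members, the 3 nearest to each in pattern with a mean of at least 1 TPM, up to 4 of each list by number of calls and then size, and Krt5, Krt14, Trp63, Krt8 and Krt18. Plaur, Ly6e, Esrp1, Lrp8, Vldlr, Ptprc, Ly6c2, Krt15, Krt17, Bnc1, Itgb4 and Cdh1 were added after their values were seen. Alternatives were other pseudocounts, filters, limits, priors, scalings, voom, fits of 6 samples, a replicate block and each sample left out. Leaving out UK5099 replicate 1 and combination replicate 1 together was chosen after seeing the data. Tools were Python 3.11.15, numpy 2.4.6, pandas 2.3.3 and matplotlib 3.10.9.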

Additional observations from a re-analysis of the deposited data

Results flagged for a closer look

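In 5 of the 6 markers UK5099 acted differently in the presence of butyrate than in its absence, by the interaction term of the limma fit (adjusted p under 0.01), which 13.4% of all genes passed. For Psca the term was -3.21, for Clu it was 1.79, for Prom1 it was 0.66, for Cd44 it was 0.28 and for Ly6a it was -0.20. The terms of Psca and Clu were past the size limit as well. With a pseudocount of 0.01 the terms of Prom1 (0.40, adjusted p = 0.0230) and Ly6a (-0.20, adjusted p = 0.0128) missed the p-value limit, and with voom that of Prom1 was 0.40 (adjusted p = 0.000116). In Cd24a the term of -0.21 missed the limit (adjusted p = 0.0120) but passed with exonic length, nuclear genes rescaled and voom.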

How the results depend on the processing

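Of 1128 comparisons of a member's coefficient with an alternative setting, 1068 kept direction and side of the threshold, 34 passed the threshold newly, 12 lost it and 14 reversed. With cultures left out, 543 of 546 held. The counts of members called for UK5099, butyrate and the combination against vehicle held under every scaling to within 1.5 times. Without a limit on the coefficient, 6 members were called for UK5099 and 6 for the combination, where 33.0% and 51.0% of all genes passed. The interaction called 5, where 13.4% of all genes passed. It was 4 for UK5099 added to butyrate, 5 for butyrate added to UK5099 and 5 for butyrate against UK5099. For these last 3 comparisons the share of all genes is not given, so the counts cannot be set against it. With a limit of 1.5-fold in place of 2-fold, UK5099 added to butyrate called 2 and butyrate added to UK5099 called 3, also without a share of all genes to set them against. UK5099 added to butyrate called 2, Prom1 being the other, with pseudocounts of 0.1 and 0.01, nuclear protein-coding genes rescaled, exonic length and voom (Prom1 -1.57, -1.69, -1.30, -1.56 and -1.56). Butyrate added to UK5099 called 2 with both pseudocounts and exonic length. Butyrate against UK5099 called 1 with median of ratios, nuclear genes, exonic length and voom, 0 with quantile normalisation, and 1 to 2 with a culture left out.

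Reversed values were small. Cd24a with butyrate was 0.18 with median of ratios, 0.00715 with quantile normalisation, 0.056 with nuclear genes and 0.18 with voom. Ly6a with UK5099 added to butyrate was 0.11, 0.00469 and 0.11 with median of ratios, quantile normalisation and voom. Psca with butyrate added to UK5099 was 0.22, 0.00695, 0.12, 0.013 and 0.25 with median of ratios, quantile normalisation, nuclear genes, exonic length and voom, and it lay between -0.28 and 0.043 with a culture left out, above 0 without UK5099 replicate 3 or combination replicate 2. The cause was not tested.

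Replicate numbers did not pair the samples, as correlations of 18 same-numbered pairs lay between -0.107 and 0.029. With a replicate block 42 of 42 member coefficients held, and calls over all genes went from 454 to 449 for UK5099, 874 to 866 for butyrate and 1585 to 1580 for the combination. Of 501 counts over lists, 413 held within 1.5 times, and these counts were not refitted with a culture left out. Depth limits Prom1 most, at 764 fragments in the lowest sample.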
